A study of Homo sapiens with 10 samples.

Results

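The kinesin superfamily genes, KIF18A among them, were examined by the H3K27ac at their promoters in a pair of HER2 breast cancer cell lines kept untreated or given TWEAK. The members were the 42 protein-coding genes whose symbol names a kinesin motor (KIF or KIFC), out of 19970 protein-coding genes on chromosomes 1 to 22 and X in GENCODE release 44. A member counted as marked in a list when an H3K27ac peak lay within 1 kb of any of its transcription start sites (TSS). By their known roles 15 were classed as mitotic, 17 as transport and 10 as ciliary or other.

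SKBR3 and MDA-MB-453 are established human breast cancer lines of the HER2 subtype. All cells were seeded in DMEM with 10% FBS and starved in Opti-MEM for 8 h. TWEAK, the cytokine ligand of the Fn14 receptor, was then given to the treated groups at 10 ng/ml for 48 h and renewed at 24 h, and the untreated groups received none. Each of the 4 groups had 2 libraries, so there were 8 peak lists, and each list was called against input. The lists were not equal in what they could show. The 4 SKBR3 lists held 43684 to 51687 peaks, of which 39.4% to 52.6% had a q-value under 1e-05, and the 4 MDA-MB-453 lists held 36148 to 37813 peaks, of which 59.8% to 63.8% did. The number of reads behind each list is unknown here, so a gene without a peak had no peak at the caller's threshold, and may still carry acetylation below it. All 8 luminal epithelial markers checked (among them ERBB2, GATA3 and FOXA1) had a promoter peak in all 8 lists. Of 9 markers of other cells, 7 had none in any list, and CDH5 and COL1A1 had one in all 8.

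Kinesins are motor proteins that hydrolyse ATP to move along microtubules or to dismantle their ends. Mitotic kinesins build the spindle, align chromosomes and complete cytokinesis, and are made mainly by dividing cells. Transport kinesins carry vesicles, organelles and messenger RNAs, and several are known chiefly from neurons, while others work in the cilium. Acetylation of histone H3 at lysine 27 marks active promoters and enhancers, and it is laid on nucleosomes around a start site rather than on 1 gene, so a peak between divergent genes belongs to both.

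Peaks were compared by their percentile, which is the rank of a peak's score among all peaks of its own list (100 is the highest score), and by their width in bp. Where several peaks lay near a gene's starts, the one with the highest score was used. A promoter peak was found in all 8 lists for 24 of the 42 kinesins (57.1%), in some lists for 9 (21.4%) and in none for 9 (21.4%). Of all protein-coding genes, 49.6% had one in all 8 lists and 35.0% in none. The classes differed in this count. Of the mitotic kinesins 12 of 15 were marked in all 8 lists, against 9 of 17 transport and 3 of 10 ciliary or other kinesins. Unmarked in every list were 2 mitotic genes (KIF2B and KIF4B), 5 transport genes (KIF1A, KIF5A, KIF5C, KIF17 and KIF21B) and 2 others (KIF19 and KIF26B). KIF4B is an intronless copy of KIF4A, and KIF1A, KIF5A and KIF5C are motors best known from neurons.

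**Figure D1:**
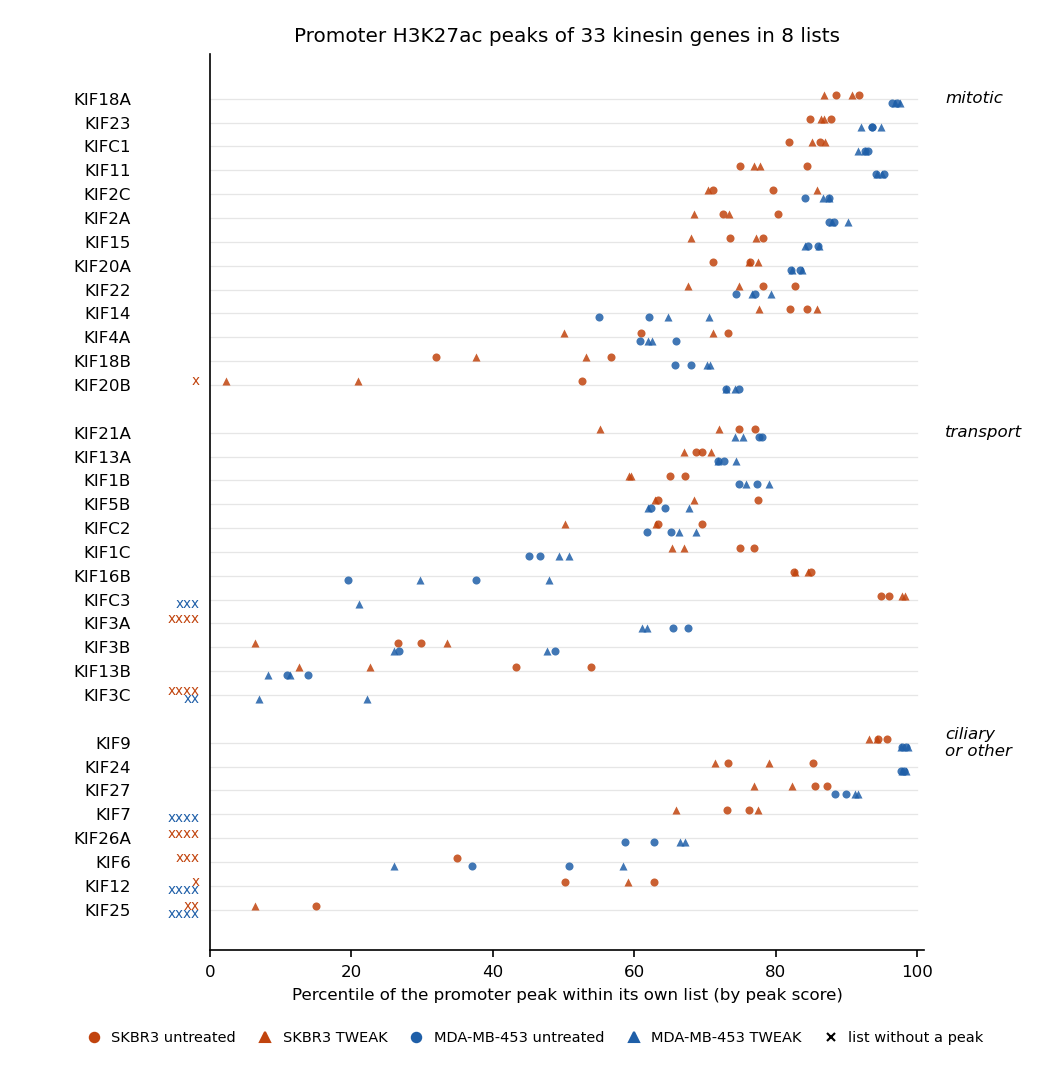
Percentile of the promoter H3K27ac peak (x axis, by peak score within its own list) of the 33 kinesin genes that had a peak in at least 1 list. Each point is 1 list, circles are untreated and triangles TWEAK, orange is SKBR3 and blue MDA-MB-453, and each cross at the left is a list without a peak. KIF18A lay between 86.8 and 97.5 in the 8 lists, higher in every MDA-MB-453 list. KIF16B, KIFC3, KIF3A, KIF7 and KIF26A were among the other genes split by cell line.

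KIF18A, a kinesin-8 motor that walks to the plus ends of kinetochore microtubules and restrains chromosome movement at metaphase, had the highest mean percentile of the mitotic kinesins in both lines. The gene lies on the minus strand at chr11:28020619-28108156 (hg38), and its start is 92 bp from that of METTL15 on the other strand, so the peak covers both starts. In untreated SKBR3 its percentiles were 88.5 and 91.8, and with TWEAK 86.8 and 90.8. In MDA-MB-453 they were 96.4 and 97.2 untreated and 97.5 and 96.8 with TWEAK. All 4 MDA-MB-453 lists were above all 4 SKBR3 lists, while untreated and TWEAK lists overlapped within each line. The fold enrichment over background followed the same split, from 7.22 to 10.6 in SKBR3 and from 15.3 to 17.5 in MDA-MB-453. Width separated the lines more clearly than rank. The KIF18A peak was 1097 and 1416 bp wide in untreated SKBR3, 1270 and 1771 bp after TWEAK, 4492 and 4509 bp in untreated MDA-MB-453 and 4798 and 4592 bp after TWEAK. Upstream of the KIF18A start, toward and into METTL15, it reached 573 to 685 bp in SKBR3 and 2900 to 3114 bp in MDA-MB-453. Into the KIF18A gene body it reached 523 to 1095 bp and 1464 to 1691 bp. Peak borders do not say which of the KIF18A and METTL15 starts carried the added width.

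The 250 bases before the start of KIF18A and of the 3 other mitotic kinesins with the highest mean percentile are shown. Each window lay wholly inside H3K27ac peaks in all 8 lists. For KIF11 in the SKBR3 replicate 1 lists, that peak was not the one that gave its percentile. The sequences are from RefSeq (GRCh38.p14), 5′ to 3′ on the gene's strand, ending at the base before the start, at chr11:28108157-28108406 (minus strand, KIF18A), chr15:69414099-69414348 (plus, KIF23), chr6:33391573-33391822 (plus, KIFC1) and chr10:92592880-92593129 (plus, KIF11). Capitals mark TTTGAA, the core of the cell cycle homology region bound by the MuvB complexes that time mitotic genes, and CCAAT, the box bound by NF-Y, on either strand.
KIF18A: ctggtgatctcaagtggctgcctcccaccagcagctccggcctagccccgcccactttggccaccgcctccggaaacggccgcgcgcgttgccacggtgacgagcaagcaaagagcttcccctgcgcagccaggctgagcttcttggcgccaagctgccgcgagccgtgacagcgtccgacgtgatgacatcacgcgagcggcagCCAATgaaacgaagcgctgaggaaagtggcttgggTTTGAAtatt
KIF23: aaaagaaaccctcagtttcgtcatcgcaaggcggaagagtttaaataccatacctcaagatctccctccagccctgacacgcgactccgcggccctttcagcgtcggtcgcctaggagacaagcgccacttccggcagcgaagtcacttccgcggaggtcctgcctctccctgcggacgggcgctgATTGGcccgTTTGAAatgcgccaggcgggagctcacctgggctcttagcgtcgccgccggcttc
KIFC1: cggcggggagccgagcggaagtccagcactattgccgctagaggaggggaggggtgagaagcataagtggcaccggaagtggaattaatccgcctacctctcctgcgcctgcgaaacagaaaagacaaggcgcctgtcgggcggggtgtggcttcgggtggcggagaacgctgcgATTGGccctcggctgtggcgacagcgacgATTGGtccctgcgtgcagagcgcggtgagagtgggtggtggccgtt
KIF11: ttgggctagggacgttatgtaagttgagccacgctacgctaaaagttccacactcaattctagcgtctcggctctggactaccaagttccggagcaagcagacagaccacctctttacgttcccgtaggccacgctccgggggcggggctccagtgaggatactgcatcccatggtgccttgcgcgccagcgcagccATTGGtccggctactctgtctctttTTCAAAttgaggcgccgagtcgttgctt
In KIF18A, TTTGAA occupied bases 10 to 5 before the start and CCAAT bases 45 to 41. In KIF23 they lay at 55 to 50 and 64 to 60, and in KIF11 at 28 to 23 and 53 to 49. KIFC1 had CCAAT at 75 to 71 and at 46 to 42, and no TTTGAA or TTCGAA. Of the 42 members 34 had a promoter in the RefSeq table. There, TTTGAA or TTCGAA was present in 6 of 15 mitotic, 1 of 12 transport and 0 of 7 other kinesins, against 11.39% of 15315 protein-coding promoters of the same length. CCAAT was present in 11 of 15, 4 of 12 and 3 of 7, against 34.86%. Both kinds were present in 5 of 15 mitotic and 1 of 12 transport kinesin promoters, against 4.571% of all. The AP-1 letters TGANTCA were found only before KIF21A among the 34 (4.786% of all), and the NF-κB letters GGANTTTCC before none (1.443% of all). A match is a description of the letters only. The median GC content was 63.6% over mitotic and 73.4% over transport kinesin promoters.

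KIF23, KIFC1 and KIF11 followed KIF18A in rank among the mitotic kinesins. The 4 values of a line stand in the order untreated replicates 1 and 2, then TWEAK replicates 1 and 2. KIF23 (MKLP1, the motor of the centralspindlin complex at the spindle midzone) had percentiles of 84.8, 87.9, 86.4 and 86.9 in SKBR3 and 93.6, 93.6, 94.98 and 92.1 in MDA-MB-453. KIFC1 (HSET, a minus-end motor that bundles spindle poles and clusters extra centrosomes) had 81.9, 86.3, 85.1 and 87.0 in SKBR3 and 92.6, 93.1, 92.6 and 91.6 in MDA-MB-453. KIF11 (Eg5, which slides antiparallel microtubules apart to separate the poles) had 74.97, 84.4, 76.9 and 77.9 in SKBR3 and 94.2, 95.3, 95.1 and 94.3 in MDA-MB-453. In these 3 genes every MDA-MB-453 list lay above every SKBR3 list. In the SKBR3 replicate 1 lists the KIF11 value came from a second, upstream start that lies 9 bp from that of IDE. At the canonical KIF11 start the SKBR3 percentiles were 74.6, 84.4, 74.1 and 77.9, and the 2 lines were separate there as well.

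The kinesin-13 motors KIF2A and KIF2C (MCAK), which take microtubules apart at their ends, and KIF15, which backs up KIF11 in keeping the spindle bipolar, ranked next. KIF2C had 71.1, 79.7, 70.5 and 85.9 in SKBR3 and 87.5, 84.1, 86.7 and 87.6 in MDA-MB-453, and its lines overlapped. KIF2A had 80.4, 72.6, 73.4 and 68.4 in SKBR3 and values from 87.6 to 90.2 in the 4 MDA-MB-453 lists. KIF15 had 73.5, 78.2, 68.1 and 77.2 in SKBR3 and 84.6, 86.0, 86.1 and 84.2 in MDA-MB-453. KIF2A and KIF15 were higher in every MDA-MB-453 list than in any SKBR3 list. Several mitotic kinesins share their promoter peak with another gene, as KIF18A does: KIF15 with KIAA1143 (175 bp away), KIF4A with PDZD11 (159 bp), KIF20A with BRD8 (443 bp) and KIF2A with an unnamed gene at the same start. H3K27ac in these peaks cannot be told apart between the 2 genes.

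Of the cytokinesis and chromosome-arm motors, KIF20A (MKLP2, which carries the chromosomal passenger complex to the midzone) had 76.4, 71.2, 76.3 and 77.5 in SKBR3 and 83.4, 82.2, 83.8 and 82.3 in MDA-MB-453. KIF14, which works with citron kinase at the midbody, ran the other way, at 82.0, 84.4, 85.9 and 77.6 in SKBR3 and 55.1, 62.1, 64.8 and 70.7 in MDA-MB-453. KIF22 and KIF4A, chromokinesins that push chromosome arms or organise the midzone, did not separate the lines. KIF22 had 78.2, 82.8, 67.6 and 74.8 in SKBR3 and 77.1, 74.4, 76.6 and 79.4 in MDA-MB-453, and KIF4A had 60.9, 73.3, 50.1 and 71.1 in SKBR3 and 60.9, 65.9, 62.0 and 62.5 in MDA-MB-453. The 2 lowest of the marked mitotic genes were lowest in SKBR3. KIF18B, the kinesin-8 relative of KIF18A that acts on astral microtubules, had 31.9, 56.8, 37.6 and 53.2 in SKBR3 and 68.1, 65.7, 70.8 and 70.3 in MDA-MB-453. KIF20B had no peak in SKBR3 untreated replicate 1, percentiles of 52.6, 2.19 and 20.98 in the other SKBR3 lists, and 73.0, 74.9, 73.0 and 74.2 in MDA-MB-453. KIF20B therefore was not among the 24 genes tested.

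The transport kinesins ranged more widely. KIF5B is the kinesin-1 heavy chain found in most tissues, KIF1B and KIF13A are kinesin-3 motors of organelles and vesicles, and KIF21A is a kinesin-4 that limits microtubule growth. These 4 were marked in all 8 lists, at percentiles between 55.2 and 79.1. KIF16B, a kinesin-3 motor of early endosomes, was the most divided of the transport kinesins marked in all 8 lists, at 85.1, 82.6, 84.6 and 82.8 in SKBR3 and 19.5, 37.6, 29.7 and 48.0 in MDA-MB-453. KIF1C, a kinesin-3 motor of vesicle and messenger RNA transport, had 76.9, 74.9, 67.1 and 65.4 in SKBR3 and 45.1, 46.6, 50.8 and 49.4 in MDA-MB-453. The KIF1C peak also covers the start of INCA1, 340 bp away. In both genes all 4 SKBR3 lists lay above all 4 MDA-MB-453 lists. KIF13B, a kinesin-3 motor, was weakly marked, at 53.9, 43.3, 22.7 and 12.6 in SKBR3 and 13.9, 10.8, 8.20 and 11.3 in MDA-MB-453, and its lines overlapped in part. KIFC2 ranged from 50.3 to 69.6 in SKBR3 and from 61.9 to 68.8 in MDA-MB-453, in a peak that also covered the starts of TMEM276, ZFTRAF1 and an unnamed gene. KIF3B, of the heterotrimeric kinesin-2 motor, ranged from 6.38 to 33.5 and from 26.1 to 48.9.

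Presence itself divided the lines for 3 of the 42 members. KIF7, which organises the ciliary tip in Hedgehog signalling, was marked in every one of the 4 SKBR3 lists and never in MDA-MB-453, as were 2.79% of all protein-coding genes. KIF3A, the partner of KIF3B in intraflagellar transport, and KIF26A, a kinesin without motor ATPase activity, were marked in each of the 4 MDA-MB-453 lists and never in SKBR3, as were 3.24% of all protein-coding genes. With 1 and 2 of 42, neither count stood far from these shares. KIF7 had percentiles of 76.2, 73.2, 65.9 and 77.5 in SKBR3. KIF3A had 65.5, 67.6, 61.0 and 61.8 and KIF26A 58.7, 62.8, 66.5 and 67.2 in MDA-MB-453. The KIF7 peak, 1462 to 1580 bp wide, lay at an upstream KIF7 start, 7.62 kb from the canonical start, where no list held a peak. The 250 bases before that upstream start, taken from the hg38 genome at chr15:89663087-89663336 (minus strand), are shown because all 4 SKBR3 peaks covered the window and no MDA-MB-453 peak did. It held none of the motifs searched, so it has no capitals.
KIF7: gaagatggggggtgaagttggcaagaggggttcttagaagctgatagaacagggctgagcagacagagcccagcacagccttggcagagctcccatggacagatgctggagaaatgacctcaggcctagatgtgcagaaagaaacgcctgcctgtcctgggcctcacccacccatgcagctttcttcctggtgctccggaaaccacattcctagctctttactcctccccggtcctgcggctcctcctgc

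KIFC3, a minus-end motor found at epithelial cell junctions, came close to the same division. Its percentiles were 96.1, 94.98, 97.9 and 98.3 in SKBR3, the highest of any kinesin there by mean. In MDA-MB-453 only TWEAK replicate 1 held a peak, at 21.1. In SKBR3 the KIFC3 peak was 24880, 19059, 24704 and 20077 bp wide, at the width percentiles of 99.6 to 99.7 of those lists, and in MDA-MB-453 TWEAK replicate 1 it was 231 bp. The KIFC3 promoter was not in the RefSeq table, so it was not searched for motifs. KIF12 was marked in 3 SKBR3 lists and KIF25 in 2, and neither was marked in MDA-MB-453. KIF6 was marked in 1 SKBR3 list and in all 4 MDA-MB-453 lists, at 34.9 and at 50.8, 37.0, 58.4 and 26.1.

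Among the ciliary or other kinesins marked everywhere, KIF9 (a motor of the motile cilium) had 94.5, 95.7, 94.3 and 93.2 in SKBR3 and 97.9, 98.4, 98.7 and 97.7 in MDA-MB-453. KIF24, a kinesin-13 motor that trims centriolar microtubules and holds back cilium formation, had 73.3, 85.3, 71.4 and 79.0 in SKBR3 and 97.8, 98.2, 98.4 and 97.9 in MDA-MB-453. KIF27, a relative of KIF7, had 85.6, 87.3, 82.4 and 77.0 in SKBR3 and 88.4, 90.0, 91.6 and 91.2 in MDA-MB-453. All 3 were higher in every MDA-MB-453 list than in any SKBR3 list. The KIF9 peak also covers the start of KLHL18, 97 bp away, and the KIF24 peak that of NUDT2, 238 bp away.

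Percentiles were then fitted with limma over the 9913 protein-coding genes marked in all 8 lists, which include 24 kinesins, with Benjamini-Hochberg adjustment over all 9913. Each line is 1 cell line, so the contrast is between these 2 lines and no wider groups. The 18 other members lacked a peak in at least 1 list and were not tested. Differences are SKBR3 minus MDA-MB-453 in percentile points, averaged over untreated and TWEAK lists. Higher in SKBR3 (adjusted p under 0.05) were 4 of the 24 kinesins, against 32.9% of all genes tested, and higher in MDA-MB-453 were 13, against 30.7%. The median difference was −7.16 over the kinesins and 0.03 over all genes tested. By class, the mitotic kinesins had 1 higher in SKBR3 and 9 higher in MDA-MB-453 of 12, the transport kinesins 3 and 1 of 9, and the ciliary or other kinesins 0 and 3 of 3. The share of genes higher in SKBR3 among all calls depends on list length: with all lists cut to equal size, 2052 genes were higher in SKBR3 and 3714 in MDA-MB-453 of 9495, against 3259 and 3043 of 9913. Among the 22 kinesins that could be tested with equal lists, 3 were higher in SKBR3 and 15 lower, and among the 18 left by a threshold of q under 1e-05 the counts were 2 and 14, beside 1714 and 3021 of 7802 genes.

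KIF16B was higher in SKBR3 by 50.05 points (SE 5.37, adjusted p = 9.47e-05), KIF1C by 23.1 (SE 2.95, 0.000230) and the mitotic KIF14 by 19.3 (SE 2.92, 0.000559). KIF13B was also called, at 22.1 (SE 6.96, 0.0222), but its mean rested on the untreated SKBR3 lists and the call was lost in 7 alternative settings. The largest differences toward MDA-MB-453 were those of KIF18B (−23.8, SE 5.98, adjusted p = 0.00786) and KIF24 (−20.8, SE 2.70, adjusted p = 0.000250). KIF11 differed by −16.2 (SE 2.03, adjusted p = 0.000207), or by −17.0 at its canonical start (adjusted p = 0.000235). KIF2A, KIF1B and KIF15 differed by −14.8, −14.0 and −11.0 points, with adjusted p of 0.000529, 0.000835 and 0.00397. KIF18A had a difference of −7.51 (SE 1.13, adjusted p = 0.000541), and it was −10.4 with lists of equal size and −17.8 with peaks of q under 1e-05 alone. Close to the KIF18A value were those of KIFC1 (−7.46), KIF23 (−7.08), KIF20A (−7.59) and KIF27 (−7.23), all called. Ranked by fold enrichment, KIF20A (−2.24, adjusted p = 0.369) and KIF18B (−14.0, adjusted p = 0.0646) lost their calls. KIF9, already near the top of both sets of lists, differed by −3.76 (adjusted p = 0.000474), and KIF2C by −9.67 (adjusted p = 0.0361), a call lost in 8 alternative settings. The 7 kinesins not called were KIF3B, KIF4A, KIF5B, KIF13A, KIF21A, KIF22 and KIFC2, and their 95% intervals included 0, from −10.5 to 12.6 for KIF4A and from −4.55 to 12.5 for KIF5B. KIF13A was called lower in SKBR3 under 3 alternatives (−11.8 with lists of equal size, −21.7 with q under 1e-05 and −7.39 by fold enrichment), and KIF21A under 2 (−25.5 with q under 1e-05 and −10.8 without SKBR3 TWEAK replicate 1). For KIF22 the direction depended on the scale, at −7.42 points with lists of equal size and 7.45 when peaks were ranked by fold enrichment, both called.

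**Figure D2:**
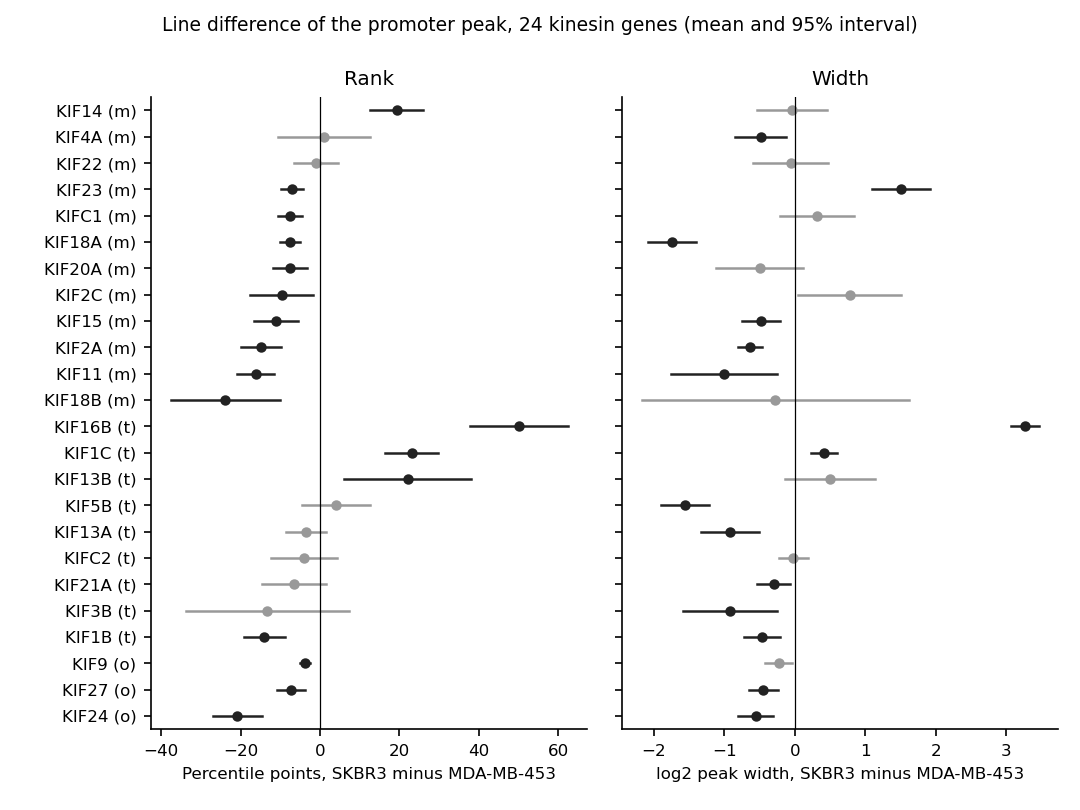
Difference between the lines (SKBR3 minus MDA-MB-453) in promoter peak percentile (left, percentile points) and peak width (right, log2) for the 24 kinesins marked in all 8 lists, with limma means and 95% intervals. Black marks an adjusted p under 0.05 and grey the rest, and m, t and o stand for mitotic, transport and ciliary or other. KIF16B is farthest to the right in both panels (50.05 points and 3.27), and KIF18A is farthest to the left in width (−1.75).

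Peak width gave a partly different order. Of the 24 kinesins, 3 had wider peaks in SKBR3, against 17.5% of all genes tested, and 12 had wider peaks in MDA-MB-453, against 33.9%. The median log2 difference was −0.38 over the kinesins and −0.19 over all genes tested. KIF16B was 9.62-fold wider in SKBR3 (log2 difference 3.27, SE 0.08, adjusted p = 7.57e-06), with widths of 7603, 7138, 6659 and 6901 bp against 749, 770, 662 and 764 bp. KIF18A was the kinesin with the largest difference the other way, 3.36-fold wider in MDA-MB-453 (log2 −1.75, SE 0.14, adjusted p = 0.000261). KIF5B came next, 2.95-fold wider in MDA-MB-453 (adjusted p = 0.000384), with 816, 1221, 1087 and 1109 bp in SKBR3 and 3174, 2994, 3055 and 3134 bp in MDA-MB-453, although its rank was not called. In KIF5B most of the added width lay inside the gene, where the peak reached 2486 to 2560 bp past the start in MDA-MB-453 and 722 to 850 bp in SKBR3. Upstream the KIF5B peak reached 507 to 628 bp in MDA-MB-453 and at most 397 bp in SKBR3.

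KIF23 was ranked lower but spread wider in SKBR3. Its peak measured 7515, 9503, 6835 and 9769 bp in SKBR3 and 2887, 3219, 2440 and 3250 bp in MDA-MB-453, a 2.84-fold difference (adjusted p = 0.000981). The KIF23 peak reached 5076 to 7060 bp upstream in SKBR3 against 853 to 1095 bp in MDA-MB-453, while its fold enrichment was 7.30 to 10.4 against 15.03 to 19.3. KIF1C was wider in SKBR3 by 0.41 on the log2 scale (adjusted p = 0.00564). Wider in MDA-MB-453 were also KIF13A (−0.92), KIF2A (−0.64), KIF24 (−0.56), KIF15 (−0.48), KIF1B (−0.46) and KIF27 (−0.45). KIF11 (−1.01), KIF3B (−0.92), KIF4A (−0.48) and KIF21A (−0.30) were called too, but each of these calls was lost in 5 to 8 alternative settings. In SKBR3 untreated and TWEAK replicate 1 the KIF11 widths (2046 and 1224 bp) were those of the upstream peak. Peaks at the canonical KIF11 start were 2506 and 2626 bp wide there. The KIF3B difference rested on the SKBR3 TWEAK lists (212 and 469 bp). Untreated KIF3B widths were 942 and 1046 bp in SKBR3 and 949 and 1133 bp in MDA-MB-453.

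**Figure D3:**
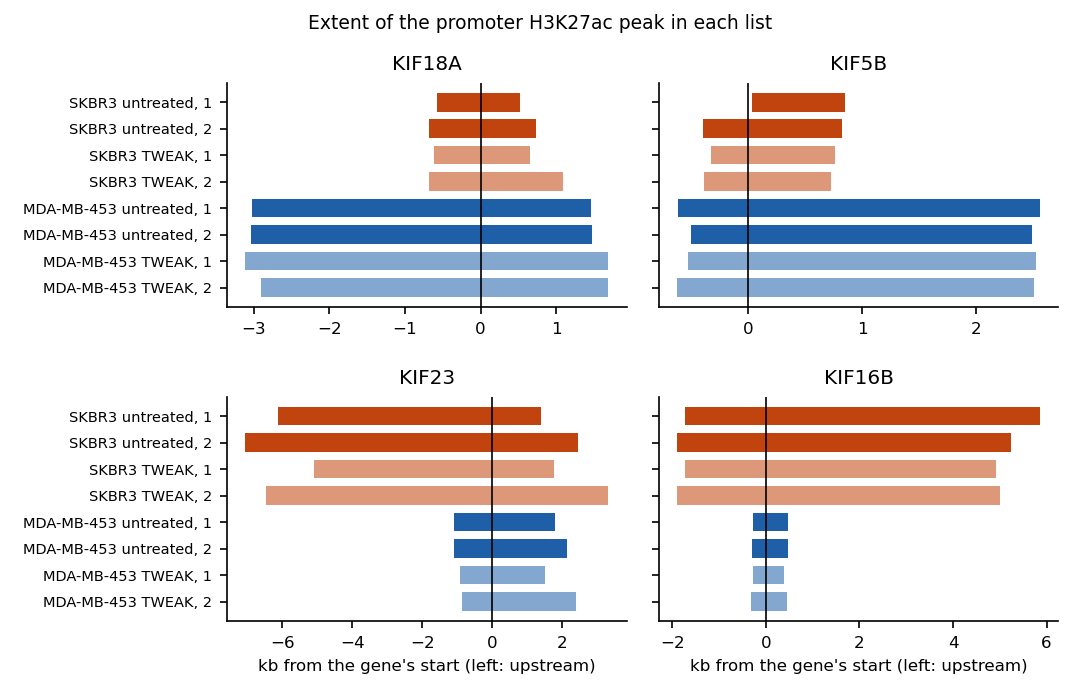
Extent of the promoter H3K27ac peak of KIF18A, KIF5B, KIF23 and KIF16B in each of the 8 lists, in kb from the canonical start with upstream to the left, 1 bar per list and a vertical line at the start. KIF18A and KIF5B peaks were wider in the 4 MDA-MB-453 lists (4492 to 4798 bp and 2994 to 3174 bp) and KIF23 and KIF16B peaks in the 4 SKBR3 lists (6835 to 9769 bp and 6659 to 7603 bp).

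Mitotic kinesins ranked above transport kinesins in every list. With a gene without a peak set to 0, the median percentile of the 15 mitotic kinesins ran from 70.5 to 83.8 over the 8 lists and that of the 17 transport kinesins from 19.5 to 53.9. Over all protein-coding genes it ran from 42.8 to 49.8. The mitotic median exceeded the transport median by 21.1 and 34.9 points in untreated SKBR3 and by 47.8 and 43.7 with TWEAK, and by 64.0 and 44.5 in untreated MDA-MB-453 and 54.1 and 56.2 with TWEAK. The mean difference over lists was 45.8 ± 13.3 points (SD, n = 8), at 36.9 ± 11.8 in SKBR3 and 54.7 ± 8.00 in MDA-MB-453 (SD, n = 4 each). With unmarked genes at 0, the transport median in each list was the value of 1 gene ranked low among those marked. In SKBR3 it was KIF13B (53.9, 43.3 and 22.7) and, in TWEAK replicate 2, KIF3B (33.5). In MDA-MB-453 it was KIF16B (19.5, 37.6 and 29.7) and, in TWEAK replicate 2, KIF3B (26.1). The mitotic median in SKBR3 was 74.97 and 78.2 untreated and 70.5 and 77.2 with TWEAK. The larger SKBR3 differences with TWEAK thus came from the lower transport median, set by KIF13B and KIF3B. No TWEAK change in rank of KIF13B, KIF3B or KIF16B passed an adjusted p of 0.05. The genes are not replicates and were grouped with results of these lists known, so the comparison of classes is a description without a test. Presence differed as well: 12 or 13 of 15 mitotic and 10 to 12 of 17 transport kinesins had a peak in a list. Among the genes with a peak, the median percentile of transport kinesins was 66.9, 72.2, 67.8 and 61.1 in SKBR3 and 62.1, 64.8, 55.9 and 61.8 in MDA-MB-453. In every list this was below the median of all genes with a peak (77.2 to 80.8). For mitotic kinesins with a peak it was 77.3, 79.7, 73.4 and 77.5 in SKBR3, where all genes with a peak had 80.8, 79.0, 79.6 and 77.5, so in SKBR3 they did not stand above the background. In MDA-MB-453 it was 84.1 to 86.1, beside 77.2 to 78.3 over all genes with a peak. Among genes with a peak, mitotic and transport kinesins thus lay closer together in every list than with unmarked genes set to 0.

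**Figure D4:**
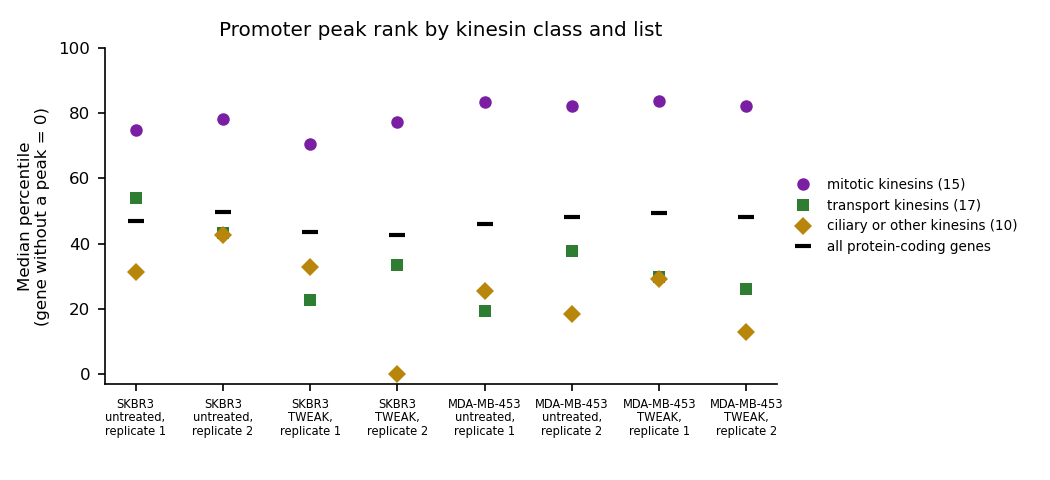
Median percentile of the promoter peak (y axis, a gene without a peak set to 0) of 15 mitotic, 17 transport and 10 ciliary or other kinesins and of all protein-coding genes, in each of the 8 lists (x axis). The mitotic median was 70.5 to 83.8, above that of all genes in every list, and the transport median exceeded that of all genes in SKBR3 untreated replicate 1 only.

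Genes that work with kinesins were counted for context. The spindle partners include CENPE and STARD9, which are kinesin motors themselves but are not among the 42 members, whose symbols begin with KIF. CENPE was higher in SKBR3 by 10.4 points (limma, adjusted p = 0.0307). STARD9 was marked in 4 MDA-MB-453 lists and 0 SKBR3 lists. Of 14 motor partners (light chains, adaptors and mitochondrial receptors) 10 were marked in all 8 lists, and of 22 spindle partners 20 were. In rank, 4 of 10 motor partners were higher in SKBR3 and 3 lower. Of 20 spindle partners 6 were higher in SKBR3 and 5 lower, with a median difference of 0.28 points. In width, 0 spindle partners were wider in SKBR3 and 8 of 20 in MDA-MB-453, beside 1 and 5 of 12 mitotic kinesins, and 0 and 3 of 10 motor partners. No difference between these lists of genes was tested. Partners of 1 kinesin went both ways. RACGAP1, which binds KIF23 in centralspindlin, was higher in SKBR3 by 9.74 points (adjusted p = 0.0127), while KIF23 was lower there. TPX2, which targets Aurora A and KIF11 to the spindle, differed by −16.8 points (adjusted p = 0.000432), in the same direction as KIF11. RHOT1, a mitochondrial receptor of kinesin-1, differed by −17.4 points (adjusted p = 0.000232), while TRAK1, the adaptor between the pair, differed by 18.9 (adjusted p = 0.0241).

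TWEAK was the second comparison. Gain or loss of a promoter peak, in both lists of an arm and neither of the other, was seen for 1 kinesin. KIF3C, a kinesin-2 motor, was gained in MDA-MB-453 with TWEAK (0.25% of all protein-coding genes were), in peaks of 381 and 671 bp at percentiles of 22.1 and 6.92, near the foot of their lists. None was lost in MDA-MB-453 (0.0751% of all genes), gained in SKBR3 (0.346%) or lost in SKBR3 (0.646%). With 2 lists against 2 no exact test of presence can reach p under 0.05.

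In limma, TWEAK called 0 of 24 kinesins in rank in SKBR3 (0.0202% of all genes tested) and 0 in MDA-MB-453 (0.0101%), and likewise 0 in width in SKBR3 (0.918%) and 0 in MDA-MB-453 (0.0404%). At an unadjusted p under 0.05 there were 5 and 0 kinesins in rank, against 1175 and 201 of 9913 genes, and 1 and 1 in width, against 920 and 255. Those in width were KIF3B in SKBR3 and KIF14 in MDA-MB-453, both narrower with TWEAK. Limma without its trend and robust options also called 0 in each contrast. KIF18A differed by −1.32 percentile points in SKBR3 (95% interval −4.97 to 2.33) and by 0.387 in MDA-MB-453 (−3.26 to 4.04). The interval of KIF23 in SKBR3 was −3.54 to 4.11 and that of KIFC1 −2.34 to 6.29. The 5 kinesins with an unadjusted p under 0.05 in SKBR3 all had lower values with TWEAK. KIF13B went from 53.9 and 43.3 to 22.7 and 12.6, a difference of −31.0 points (95% interval −53.5 to −8.40, adjusted p = 0.297). KIF21A differed by −12.3, KIF1C by −9.69, KIF22 by −9.29 and KIF27 by −6.76 points. The untreated and TWEAK lists did not overlap in these genes, and none passed the adjustment. Over the 24 kinesins the median difference was −3.64 points in SKBR3, beside −1.37 over all genes tested, and 0.61 in MDA-MB-453, beside 0.43. The difference between the 2 lines in the TWEAK effect called 0 of 24 kinesins in rank (1 of 9913 genes, and 3 kinesins and 666 genes at an unadjusted p under 0.05) and 0 in width (11 genes higher and 8 lower of 9913, and 1 and 643 unadjusted). For KIF13B it was −28.4 percentile points (adjusted p = 0.706).

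**Figure D5:**
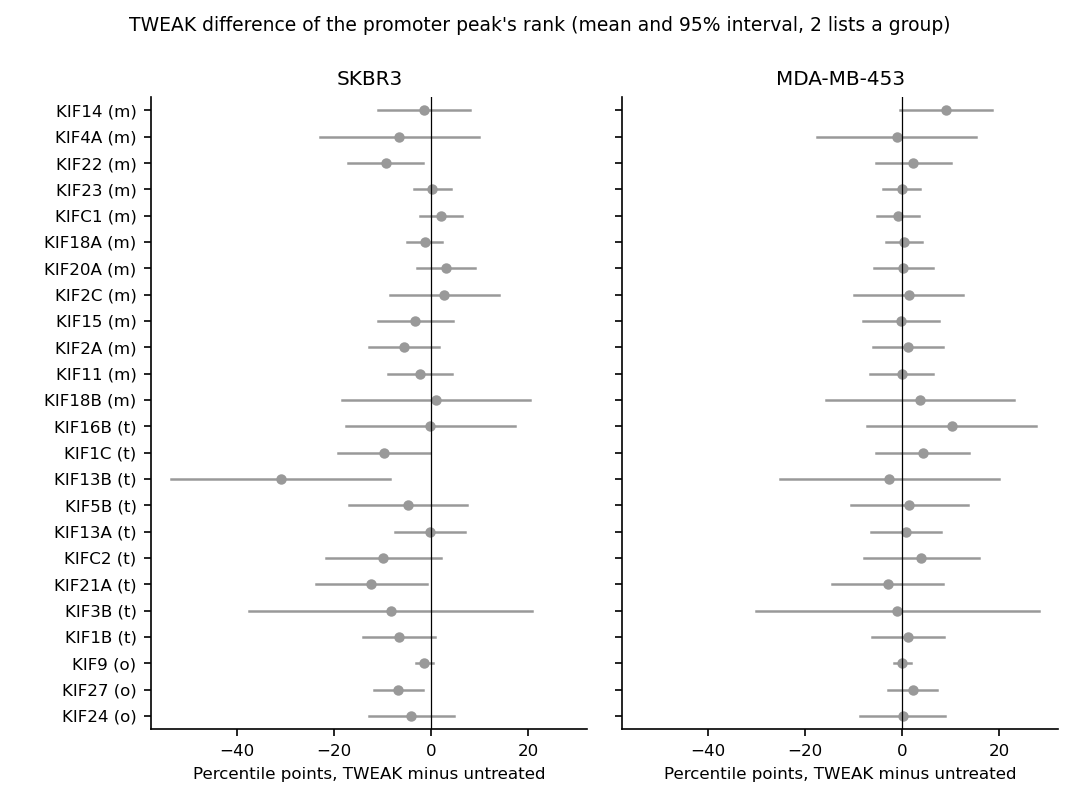
Difference with TWEAK (TWEAK minus untreated, percentile points, limma means and 95% intervals from 2 lists a group) in the promoter peak percentile of 24 kinesins in SKBR3 (left) and MDA-MB-453 (right). None passed an adjusted p of 0.05, and KIF13B in SKBR3 had the largest difference (−31.0). The letters m, t and o stand for mitotic, transport and ciliary or other.

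The 2 SKBR3 TWEAK lists were unlike each other in length (45371 and 51687 peaks), and single lists moved some of these results. Leaving out a list leaves its group with 1, which is then assumed to vary like the other groups. Without SKBR3 TWEAK replicate 1, KIF21A (−20.7 points, adjusted p = 0.0229) and KIF27 (−9.46, adjusted p = 0.0418) were called, when 483 of 10003 genes were called in all. Without SKBR3 TWEAK replicate 2, the width of KIF3B was called (log2 −2.23, adjusted p = 0.0279), when 210 of 9994 genes were called, against 91 of 9913 with all lists. Without SKBR3 untreated replicate 1, KIF20B could be tested between the lines and was higher in MDA-MB-453 (−41.7 points, adjusted p = 0.000863).

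Outside promoters, distal regions were peaks more than 1 kb from any TSS and within a kinesin gene or 50 kb of it. In SKBR3, 8 regions near 6 of the 42 kinesins were held by both TWEAK lists and neither untreated list, against 15.3% of all genes, and 5 regions near 5 kinesins were lost, against 6.51%. In MDA-MB-453, regions were gained near 3 kinesins (3.29% of all genes) and lost near 2 (3.55%). The percentages for kinesins were 14.3, 11.9, 7.14 and 4.76. Leaving out 1 list loosens the rule, since its arm is then judged by 1 list, so higher counts are built in. Without SKBR3 TWEAK replicate 1 there were 18 gained and 10 lost in SKBR3. Over the 4 SKBR3 lists left out in turn there were 8 to 18 gained and 7 to 14 lost. In MDA-MB-453 the ranges were 4 to 6 gained and 3 to 7 lost, and each of the 4 lists moved at least 1 of the counts by over 1.5 times. KIF18A had none of either kind. The highest ranked of the gained regions lay in KIF25 at chr6:168007060-168008679, with percentiles of 48.1 and 72.4 in the SKBR3 TWEAK lists, and 1 MDA-MB-453 TWEAK list held it at 6.68. A second KIF25 region lay at chr6:168036958-168038746 (28.0 and 29.3). The next highest lay in KIF13A, a kinesin-3 motor of endosomes and melanosomes, at chr6:17906493-17908592 (43.5 and 61.6). The others lay upstream of KIF2A, KIF27 and KIF3C (2 regions) and within KIF6.

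A short region inside KIF2A was the only kinesin region lost in both lines. At chr5:62314048-62314506 in SKBR3 the untreated lists ranked it at 22.4 and 4.26, and at chr5:62314095-62314380 in MDA-MB-453 at 18.4 and 10.8, all low in their lists. The KIF13B region lost in SKBR3 stood higher, at 43.3 and 40.4, and the gene's promoter peak also had lower percentiles in both SKBR3 TWEAK lists. The lost regions of KIF1B, KIF5A and KIFC3 in SKBR3 were between 2.28 and 19.6. In MDA-MB-453 the gained regions near KIF5B, KIF11 and KIFC3 were 281 to 413 bp wide, and all 3 overlapped SKBR3 peaks found with and without TWEAK, in all 4 SKBR3 lists for KIF5B and KIFC3 and in 2 for KIF11. KIF5B also lost 1 region, at 10.1 and 30.5 untreated. These regions were sparse and mostly low in their lists: a threshold of q under 1e-05 left 3 regions gained and 0 lost near kinesins in SKBR3.

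Between the lines, at least 1 distal region held by every SKBR3 list and absent from every MDA-MB-453 list lay near 19 of the 42 kinesins (45.2%, against 41.3% of all genes), and the reverse near 9 (21.4%, against 21.9%). The kinesin shares were thus close to the background in both directions. KIF6, among the longest kinesin genes at 395 kb, had 6 regions specific to SKBR3, and KIF24 and KIFC3 had 3 each. KIF18A had 1 distal region in its window, specific to SKBR3, and MDA-MB-453 had none there, the opposite line to the one with the wider promoter peak.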

How the data were processed

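The material was the H3K27ac ChIP-seq peak list of each of 8 libraries, 2 untreated and 2 TWEAK libraries for SKBR3 and as many for MDA-MB-453. The 2 input samples had no peak list and were not used here. The authors trimmed reads (Trimmomatic), mapped them to hg38 (Bowtie2), ran MACS2 library by library with the input signal subtracted, and removed blacklisted regions. Tool versions are not given in the sources used here. The deposited lists give for every peak its position, a score in whole numbers, the fold enrichment as a ratio to background, and −log10 of both p-value and q-value. No name or peak end fell outside hg38 (0 of each). Library depth is unknown, since reads were not used here, and no interval for counting error can be given. Depth and enrichment set how many peaks a library yields and how wide they are, which can alter presence, width and rank. The study compared signal with DiffBind, which needs reads, so ranks within lists were compared in its place.

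Promoters were taken within 1 kb of the TSS of GENCODE release 44 basic transcripts. The peak with the highest deposited score gave a gene's percentile within its list and its width (log2 for testing). Both were fitted with limma 3.58.1 (R 4.3.3, trend and robust variance, 4 group means) over 9913 genes, with Benjamini-Hochberg adjustment over all of them, called at an adjusted p under 0.05. The fit was tested on simulated data. Python 3.11.15 with pandas 2.3.3 was used for the rest. Distal regions were merged across the 4 lists of a line at an overlap of 1 bp. Libraries were taken as replicates from their labels, and the study's methods call them biological replicates. P-values measure the spread between them.

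The kinesin members, their classes, the partner lists and the motifs were chosen with earlier results of these data known. Named with values were KIF18A, every mitotic kinesin with a peak, members whose presence differed, up to 10 called members per contrast by size of difference, and members with a gained or lost distal region. Widths of the smaller calls, partners and members with partial presence were named in addition, after their values were seen. Alternatives were a threshold of q under 1e-05, lists of equal size, peaks overlapping a TSS or within 2.5 kb, the canonical TSS alone, ranking by fold enrichment or among the genes tested, limma without trend and robust options, a 50% overlap or the gene body alone for distal regions, a replicate block, and leaving out each library.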

Additional observations from a re-analysis of the deposited data

How the results depend on the processing

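The number of kinesins called between the lines in rank (17) and in width (15) stayed within 1.5 times its value under every alternative run, at 15 to 17 and 10 to 16 when 1 library was left out. Of the single-gene results under an alternative, for kinesins called with all lists, 461 kept direction and side of the threshold, 44 lost the call and 0 reversed. KIF22, not called between the lines, was called in opposite directions with lists of equal size (−7.42) and by fold enrichment (7.45). Calls were lost most often for KIF2C (8) and KIF13B (7) in rank, and for KIF21A (8), KIF4A (7), KIF3B (6) and KIF11 (5) in width. Leaving out 1 library gave 0 to 2 kinesins called in rank with TWEAK in SKBR3 and 0 to 1 in width. Presence with TWEAK then gave 1 to 2 kinesins, adding KIF6 without SKBR3 untreated replicate 1, KIF20B without untreated replicate 2, KIF12 without TWEAK replicate 1, and KIFC3 without MDA-MB-453 TWEAK replicate 2. Presence by line gave 3 to 4 (KIF6, KIF12 or KIFC3 added). The mitotic over transport difference was 43.2 to 49.3. Distal regions near kinesins gained and lost were 8 to 18 and 7 to 14 in SKBR3, and 4 to 6 and 3 to 7 in MDA-MB-453. With q under 1e-05, 0 kinesins changed presence with TWEAK, the mitotic over transport difference was 59.5, and distal regions fell to 3 gained and 0 lost in SKBR3 and 1 gained in MDA-MB-453. Lists of equal size left 2 lost in SKBR3, and the gene body alone 3 gained there. Fewer peaks enter these 3 settings by construction. Presence and gained or lost regions ask for every list of an arm or line. Leaving out 1 library therefore loosens these rules by construction, and higher counts come with it. Otherwise the cause was not tested.

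The labels do not say that equal replicate numbers mark a shared culture or day. Deviations of same-numbered libraries correlated at 0.308 in SKBR3 and 0.0402 in MDA-MB-453 over the 9913 genes, with 2 pairs a line. With the replicate block, rank by line gave the same 17 kinesins and width by line 15, of which 13 were shared, adding KIF20A and KIF2C and losing KIF4A and KIF21A. TWEAK called 0 kinesins in each contrast with the block. Over all genes the block gave 13 width calls with TWEAK in SKBR3, against 91 without it.

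Groups of 2 lists limit the TWEAK comparison. The median half-width of the 95% interval over the 24 kinesins was 8.27 percentile points, and the largest was 29.1 (KIF3B). The depth of the libraries is unknown, and a missing peak does not show missing acetylation.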
